A study of Acomys cahirinus and Mus musculus with 6 samples.

Results

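Hair germ and outer bulge cells are the keratinocytes at the base of the resting hair follicle from which a new hair is built. They were taken here as the cells that the authors' deposited cell table names hair germ/outer bulge, and they numbered 2503 of 39577 cells. All came from ear skin healing after a hole punch, profiled by droplet single-cell RNA sequencing in 6 libraries. There were 4 libraries from the spiny mouse (Acomys cahirinus, labelled wild-type), which received an ERK inhibitor (54 cells of the class), an ErbB2 inhibitor (942 cells), an FGFR1/2/3 inhibitor (371 cells) or the vehicle DMSO (923 cells), each injected from day 12 to day 15. The other 2 libraries came from CD1 laboratory mice, in which beads soaked in FGF2/Nrg1 (139 cells) or in PBS (74 cells) were implanted on day 10. The labels give each inhibitor by its target, and the number of animals behind a library is not given in the sources used here. Each group was 1 library, so nothing could be tested: every difference is one between libraries, and every interval in brackets is a 95% interval that covers counting error only. The inhibitor comparisons all share the DMSO library.

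The bulge is the lower, permanent part of the outer root sheath that holds follicle stem cells, and the hair germ is the small cluster of primed cells between the bulge and the dermal papilla. In the laboratory mouse, WNT signals push these cells into growth and BMP signals keep them at rest. The receptors for FGF and for neuregulins of the ErbB family signal through the kinase ERK, which is the axis that the inhibitors and the beads of this study address.

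Depth differed between the libraries. The class held 341943 UMIs (unique molecular identifiers, one per captured RNA molecule) with the ERK inhibitor, 2243245 with the ErbB2 inhibitor, 1026895 with the FGFR1/2/3 inhibitor, 1906287 with DMSO, 667171 with FGF2/Nrg1 beads and 431518 with PBS beads. The median cell of the class had 5808.5, 2212.5, 2672, 1704, 4607 and 6070.5 UMIs in the same order. No cell barcode of the class occurred in more than 1 library. Levels below are CPM, which is the share of the UMIs of the class in that library that a gene took, scaled to counts per 1000000. Spiny mouse reads carry mouse gene names, so a gene whose sequence has diverged may be undercounted, and no ratio was taken across species.

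The class made up a larger share of its library in every inhibitor group than in DMSO. It was 8.56% of cells with the ERK inhibitor (6.49 to 11.02), 8.86% with the ErbB2 inhibitor (8.33 to 9.42) and 7.76% with the FGFR1/2/3 inhibitor (7.02 to 8.55), against 6.01% with DMSO (5.64 to 6.40). Of annotated epithelial cells alone, it was 12.7% (9.71 to 16.3), 11.5% (10.8 to 12.2) and 10.1% (9.14 to 11.1) in the same inhibitor order, against 8.14% (7.64 to 8.65) with DMSO. With FGF2/Nrg1 beads the class was 2.72% of all cells (2.29 to 3.21), against 2.41% with PBS beads (1.90 to 3.02). Its share of epithelial cells was 8.16% with FGF2/Nrg1 beads (6.91 to 9.57), against 4.88% with PBS beads (3.85 to 6.09). Thus the mouse libraries stood apart on the epithelial denominator and overlapped on the other. With 1 library a group, dissociation, depth and treatment cannot be told apart as sources of these gaps.

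**Figure D1:**
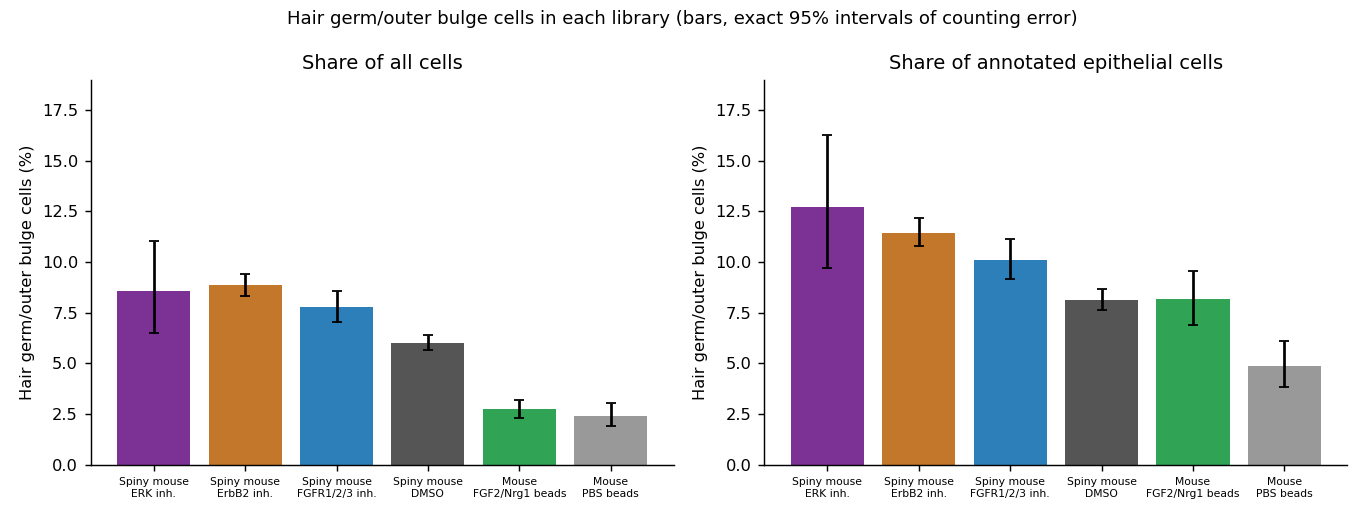
Bars give the percent of cells named hair germ/outer bulge in each of the 6 libraries, of all cells (left) and of annotated epithelial cells (right), with exact 95% intervals of counting error. In the spiny mouse the inhibitor bars sit above the DMSO bar in both panels, and in the mouse the epithelial shares are 8.16% with FGF2/Nrg1 beads and 4.88% with PBS beads.

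The label was checked against 6 markers. On the mouse build GRCm38 with GENCODE vM21, Lhx2, a transcription factor of follicle stem cells, lies at chr2:38339281-38369733, and Lgr5, a receptor for R-spondins that marks cycling follicle stem cells and the hair germ, lies at chr10:115450311-115587780. Tspan8, a membrane protein of the tetraspanin family, is at chr10:115816832-115849893, and Fzd2, a WNT receptor, at chr11:102604396-102608058. Pdlim3, which binds the actin cytoskeleton, is at chr8:45885461-45919548, and Pcp4, a small calmodulin-binding protein, at chr16:96467606-96525793. All of these are whole protein-coding gene spans.

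Lhx2 was highest in the class among all annotated types of at least 30 cells in every library. It stood at 456 CPM with the ERK inhibitor, 263 with the ErbB2 inhibitor, 381 with the FGFR1/2/3 inhibitor, 315 with DMSO, 417 with FGF2/Nrg1 beads and 399 with PBS beads. The next type held between 21.3 and 77.0 CPM. Lgr5 was also highest in the class everywhere, at 90.7, 94.95, 95.4 and 84.5 CPM in the spiny mouse libraries and at 264 CPM in both mouse libraries. Fzd2, at 167 to 299 CPM, and Pcp4, at 41.7 to 227 CPM, likewise had their highest level in the class in all 6 libraries. For Fzd2 fibroblasts came next with the ErbB2 inhibitor (180 CPM in the class against 153 CPM), the FGFR1/2/3 inhibitor (299 against 184 CPM), DMSO (173 against 132 CPM) and FGF2/Nrg1 beads (211 against 98.4 CPM).

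Tspan8 and Pdlim3 were clear in the class of the spiny mouse and near 0 in that of the mouse. Tspan8 was at 605 CPM with the ERK inhibitor, 1081 with the ErbB2 inhibitor, 697 with the FGFR1/2/3 inhibitor and 367 with DMSO, where endothelium came next at 97.7 to 159 CPM. The mouse class held 9 UMIs of it with FGF2/Nrg1 beads and 1 with PBS beads. Pdlim3 had 72, 212, 186 and 210 UMIs in the 4 spiny mouse libraries, and dermal sheath/papilla cells were above the class with the ErbB2 inhibitor, the FGFR1/2/3 inhibitor and DMSO. The ERK inhibitor library held 4 such cells, too few to compare. It had 4 UMIs with FGF2/Nrg1 beads and 3 with PBS beads. The mouse cells therefore carry the name on 4 of the 6 markers.

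**Figure D2:**
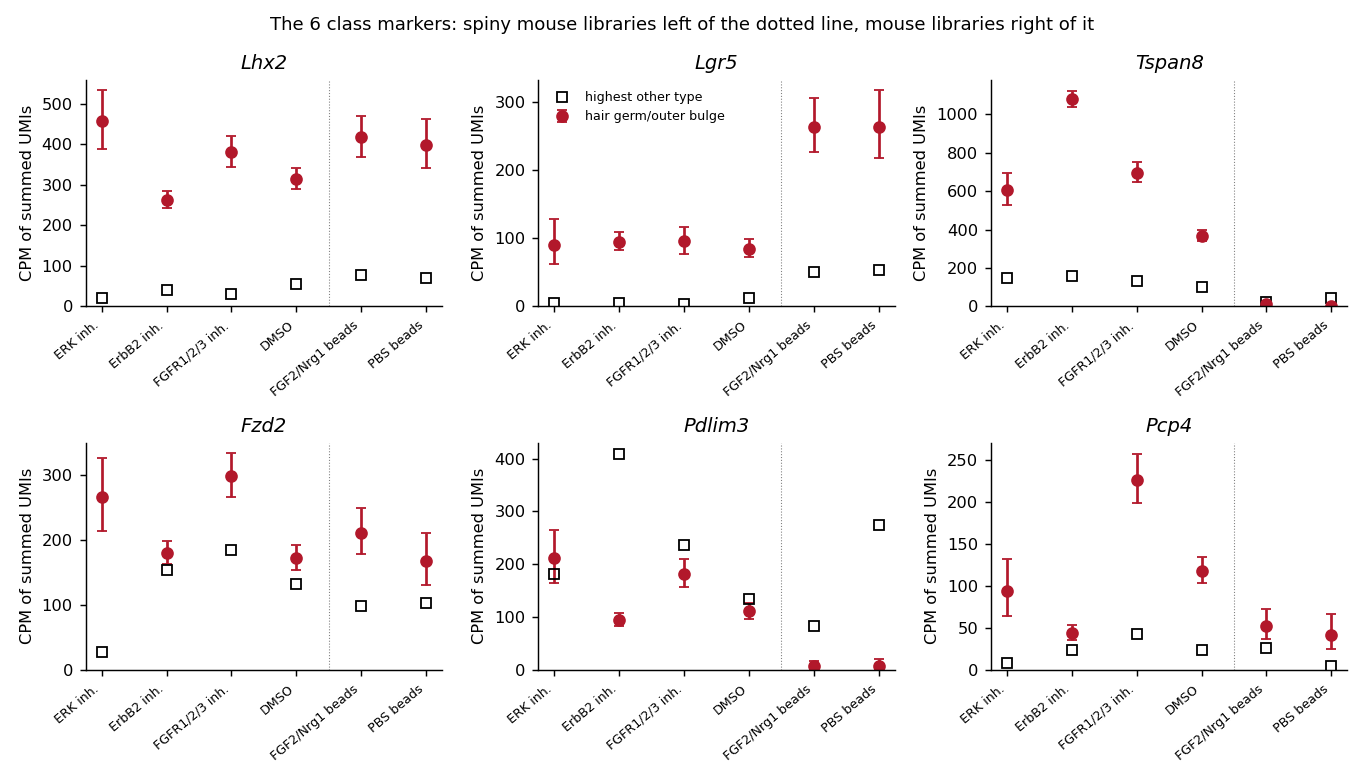
Each panel gives 1 marker in CPM of summed UMIs: filled points are the class with exact 95% Poisson intervals, and open squares are the highest other annotated type of that library. Lhx2, Lgr5, Fzd2 and Pcp4 lie above the squares in all 6 libraries, whereas Tspan8 and Pdlim3 are near 0 in the 2 mouse libraries.

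At 1 depth, with each cell thinned to 1000 UMIs, at least 1 UMI of the 6 markers was found in 84.3% of 51 cells with the ERK inhibitor, 79.3% of 888 with the ErbB2 inhibitor and 79.7% of 349 with the FGFR1/2/3 inhibitor, against 64.7% of 856 with DMSO. The shares were 59.1% of 132 cells with FGF2/Nrg1 beads, and 33 of 66 cells had one with PBS beads. Without thinning they were 98.1%, 91.9%, 93.8%, 80.3%, 92.1% and 85.1% in the same order of libraries. Annotated immune cells, which should lack these genes, had a UMI in 0 to 6.14% of thinned cells. Their median depth was 1583 to 5889 UMIs.

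Other markers of the hair cycle differed in what could be counted in each species. Krt15, a keratin of the bulge, was highest in the class in every library, at 5904, 3597, 6684 and 4088 CPM in the spiny mouse and at 16913 and 17255 CPM in the mouse, first with FGF2/Nrg1 and then with PBS beads. Cd34, the classic surface marker of the mouse bulge, had 120 UMIs (180 CPM) with FGF2/Nrg1 beads and 61 (141 CPM) with PBS beads. In the spiny mouse class it had 0, 0, 2 and 0 UMIs, although spiny mouse endothelium held 56.7 to 150 CPM of the same gene name. Shh, the hedgehog ligand of growing hair germ, had 0 to 2 UMIs in every library.

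RNA of other cell types was present in the class and differed between libraries. Markers of the spinous and granular epidermis summed to 1158 CPM with the ERK inhibitor, 23589 with the ErbB2 inhibitor, 8607 with the FGFR1/2/3 inhibitor and 23032 with DMSO, with 10, 12, 12 and 12 of 13 members detected. In each library that was between the lowest other type, at 540 to 12039 CPM, and the highest, at 126169 CPM or more. Inner root sheath markers summed to 178, 198 and 271 CPM with the ERK, ErbB2 and FGFR1/2/3 inhibitors and to 1140 CPM with DMSO. The DMSO library held 91 annotated inner root sheath cells, and the same inhibitor libraries held 5, 22 and 19. Neutrophil markers summed to 126, 200 and 120 CPM with the inhibitors and to 411 CPM with DMSO, and macrophage and dendritic cell markers to 17.5, 91.4, 139 and 205 CPM. Of the 7 neutrophil markers, Retnlg, Csf3r and Cxcr2 had 0 UMIs in the class of all 4 spiny mouse libraries. With the ERK inhibitor only S100a8 and S100a9 were found, so these sums are not specific to neutrophils. No cell of the class, in any library, had more UMIs of the 6 markers than of each other marker list. This could hardly come out otherwise, because the interfollicular basal list holds Krt5 and Krt14, which the class itself expresses. That list summed to 10874 to 17219 CPM in the class over the 6 libraries, against 881 to 1880 CPM for the 6 markers. The count is therefore no measure of foreign RNA.

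Within the class the authors' clusters 2 and 26 were joined. Cluster 2 held 1709 cells with a median of 2678 UMIs, and cluster 26 held 794 cells with a median of 1245.5. Cluster 26 was 16.7% of the class with the ERK inhibitor, 36.1% with the ErbB2 inhibitor, 24.8% with the FGFR1/2/3 inhibitor and 35.97% with DMSO, and it was 8.63% with FGF2/Nrg1 beads and 12.2% with PBS beads. In the spiny mouse Tspan8 and Lgr5 were among the 10 leading genes of both clusters, so both kept the name. In the mouse the 21 cells of cluster 26 led with Slc6a6, Krt15 and haemoglobin Hbb-bs and with none of the 6 markers, and their median depths were 982.5 UMIs with FGF2/Nrg1 beads and 895 with PBS beads, where the libraries had 3904 and 3852, so they are class cells by annotation alone.

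Cluster 26 of the spiny mouse had less RNA of some genes than cluster 2 and more of other genes, in the 3 libraries with enough cells to compare. Wif1, a secreted WNT inhibitor, was lower in cluster 26 than in cluster 2 by a log2 ratio of −0.93 with the ErbB2 inhibitor, −1.69 with the FGFR1/2/3 inhibitor and −0.99 with DMSO. Smoc2, a secreted matrix protein, had ratios of −1.98, −1.09 and −1.95, and Sox4, a transcription factor, had −0.83, −1.03 and −0.89. Higher in cluster 26 were Cd74 and H2-Aa, which belong to antigen presentation, with H2-Aa at 1.39, 2.17 and 1.14 and Cd74 at 1.61, 1.70 and 1.19. Cd74 was at the level of free RNA with the ErbB2 inhibitor. Cnfn, a protein of the cornified layer, was higher too, at 0.87, 1.51 and 1.002, and so were Cysrt1 (0.86, 1.28 and 1.11) and Igfl3 (0.87, 0.98 and 0.98). Cnfn and Igfl3 were at the level of free RNA with the FGFR1/2/3 inhibitor. Of all genes with at least 30 UMIs, 7.57%, 17.0% and 9.44% were higher in cluster 26 by 1.5-fold or more in these libraries and 8.45%, 10.8% and 7.67% were lower, so such genes were not rare. The 2 clusters were made from these same values, so the ratios describe them and test nothing.

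Several genes set the class apart from all other annotated epithelial cells, here as the 25 genes with the highest smallest ratio over the spiny mouse libraries. They are a description, since the clusters were drawn from the same values, and 23.2%, 22.1%, 23.5% and 16.9% of all genes were 2-fold or more higher in the class in the ERK inhibitor, ErbB2 inhibitor, FGFR1/2/3 inhibitor and DMSO libraries. In the mouse the shares were 18.9% with FGF2/Nrg1 beads and 21.8% with PBS beads. Lgr5 led, with a log2 ratio of 5.88 to 7.02 in the spiny mouse, 6.34 with FGF2/Nrg1 beads and 6.45 with PBS beads. Tspan8 followed at 5.82 to 7.54 and Lhx2 at 4.52 to 5.58.

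The gap to the nearest epithelium was smaller for some genes. Sox9, a transcription factor of outer root sheath and bulge, had a log2 ratio of 2.78 to 3.12 over all other epithelial cells in the spiny mouse, but of 0.40 with the ErbB2 inhibitor, 0.82 with the FGFR1/2/3 inhibitor and 0.64 with DMSO over outer root sheath cells. Over these cells 13.1%, 12.2% and 8.66% of all genes were 2-fold or more higher in the class of the same libraries, and 11.1% and 10.7% in the mouse with FGF2/Nrg1 and PBS beads. The ERK inhibitor library held 9 outer root sheath cells, too few to compare. Krt15 was 2-fold or more higher than in interfollicular basal cells with the ERK inhibitor (1.13) and the FGFR1/2/3 inhibitor (1.08), and stood at 0.96 with the ErbB2 inhibitor and 0.91 with DMSO. There 11.6%, 12.3%, 10.9% and 10.3% of all genes were as much higher in these libraries, in the order given.

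Among the 25 were 4 further WNT genes besides the R-spondin receptor Lgr5. They were Fzd2, Fzd1, a further WNT receptor (3.11 to 3.79), Wif1 (3.76 to 6.61) and Dkk3, a member of the Dickkopf family of secreted proteins (3.30 to 4.21). In the mouse Wif1 had ratios of 3.28 and 4.56 and Dkk3 of 4.83 and 4.50, with FGF2/Nrg1 and with PBS beads. Ccn2, a matrix protein and a target of TGF-beta and YAP signalling, reached 4.12 to 6.86. Cntn1, a cell adhesion molecule (5.40 to 6.09), Ecrg4 (4.39 to 8.18) and Pdgfc, a growth factor (3.35 to 4.31), were also in the list. Krt35 is a keratin of the hair cuticle and matrix in the mouse. It was higher in the spiny mouse class, at 3.41 to 5.71, but in the mouse its ratios were −4.29 and −3.62, with 13 and 5 UMIs in the class. The other epithelial cells include inner root sheath cells. The mouse libraries held 211 of these with FGF2/Nrg1 beads and 86 with PBS beads. The spiny mouse libraries held 5, 22 and 19 with the ERK, ErbB2 and FGFR1/2/3 inhibitors and 91 with DMSO. The part of these cells in the Krt35 ratios was not tested.

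**Figure D3:**
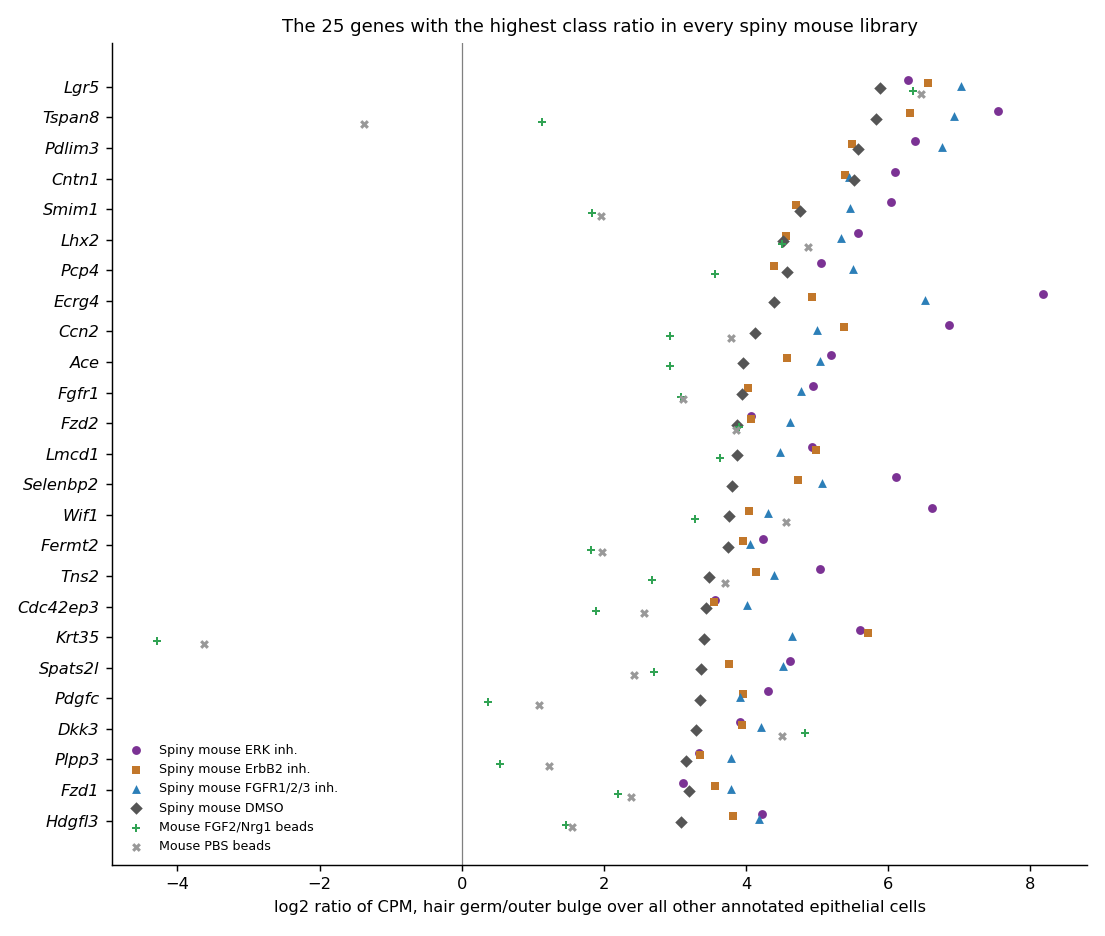
Points give, for each of the 25 genes (rows) and each library (colour and shape), the log2 ratio of CPM in the class over all other annotated epithelial cells. The spiny mouse points all lie to the right of 3, whereas the mouse points of Krt35 lie left of 0 and 1 of the 2 for Tspan8 does too.

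The class expressed receptors that the inhibitors and the beads address. Fgfr1 was among the 25 genes, with 155 CPM with the ERK inhibitor, 128 with the ErbB2 inhibitor, 190 with the FGFR1/2/3 inhibitor, 140 with DMSO, 145 with FGF2/Nrg1 beads and 144 with PBS beads. Other epithelial cells of the same libraries held 4.98 to 17.3 CPM. Fgfr2, the receptor for FGF7 and FGF10 in epithelia, was at 87.7, 96.3, 96.4, 85.5, 74.9 and 104 CPM. Fgfr3 had 1 to 5 UMIs in the spiny mouse class, and 48 UMIs with FGF2/Nrg1 beads and 24 with PBS beads in the mouse. Erbb2 was at 43.9, 63.3, 60.4 and 67.1 CPM in the spiny mouse and at 18.0 and 23.2 CPM in the mouse, and Egfr at 99.1 to 170 CPM in all 6 libraries. Erbb3, the receptor that binds neuregulin and pairs with ErbB2, had 6, 25, 3 and 10 UMIs in the spiny mouse and 22 and 13 UMIs in the mouse. Nrg1 itself had at most 7 UMIs and Fgf2 at most 3. Of the receptor and ligand genes of the FGF family with enough UMIs, 0 of 4 were higher and 1 lower with the ERK inhibitor, and 0 of 4 passed 1.5-fold in either direction with the ErbB2 and the FGFR1/2/3 inhibitor. Of those of the ErbB family, 2 of 4 were higher with the ERK inhibitor, 1 of 6 with the ErbB2 inhibitor and 0 of 5 with the FGFR1/2/3 inhibitor, and 0 were lower. Of all genes tested in the class, 22.0%, 12.4% and 10.6% were higher by 1.5-fold or more with these inhibitors and 12.7%, 7.51% and 6.47% lower.

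The ERK inhibitor was set against DMSO in 54 cells and 923 cells of the class. Of 6067 genes with at least 30 UMIs over both libraries, 22.0% were higher with the ERK inhibitor by 1.5-fold or more and 12.7% were lower, and the median gene was at a log2 ratio of 0.16. Scaling by the trimmed mean of M values moved all ratios down by 0.20, and with it 809 genes were higher and 1139 lower, in place of 1337 and 771.

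Pdk4, a kinase that shuts down pyruvate dehydrogenase, led the highest ratios. It had 51 UMIs (149 CPM) with the ERK inhibitor, against 11 UMIs (5.77 CPM) with DMSO, a log2 ratio of 4.59 (3.73 to 5.78). The metallothionein Mt2 had 1225 CPM against 83.4 CPM (3.87, 3.61 to 4.15), and Mt1 had 2764 CPM against 393 CPM (2.81, 2.67 to 2.95). Txnip, an inhibitor of thioredoxin, had 541 CPM against 86.6 CPM (2.64). Rasd1, Klf15, Nfil3, Cebpd, Fkbp5 and Gcnt2 completed the 10 highest, at 2.65 to 3.19. All 10 kept their direction with the scaling factor. They also kept it after the level of the lowest other cell type of each library was subtracted as a measure of free RNA. What was left was rescaled to its own total, here and in the other comparisons, so genes with nothing subtracted shifted too. After subtraction the median gene was at −0.17 in place of 0.16, Cebpd at 1.5005 and Pdk4 at 3.90.

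Among the lowest were genes of the differentiated epidermis and of other cells. Fabp5, a fatty acid binding protein of keratinocytes, had 29 UMIs with the ERK inhibitor, against 5052 with DMSO (−4.92, −5.55 to −4.44). The suprabasal keratin Krt77 was at −4.79, filaggrin (Flg) at −4.63 and the stefin Stfa3 at −5.00. Klk5, a protease of the epidermis, had 0 UMIs against 204, at least 12.2-fold lower on a floor of 3 UMIs per library. Igfl3 had 0 against 246 (at least 14.7-fold), Csta1 0 against 144 (at least 8.61-fold), Stmn2 0 against 142 (at least 8.49-fold), and Pf4, a chemokine of platelets and macrophages, 0 against 198 (at least 11.8-fold). Ccer2 had 0 against 1003 (at least 59.97-fold), but 997 of the 1003 UMIs sat in 3 DMSO cells. Krt71, Krt25 and Lce1f would have ranked with them and were at the level of free RNA in the DMSO class. The summed spinous and granular markers given above, 1158 CPM with the ERK inhibitor and 23032 CPM with DMSO, move with these genes, and their part in the ratios was not tested. Krt77 and Flg are in that sum, so for them it is no separate measure.

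Identity genes of the class lay near or above their DMSO level with the ERK inhibitor. Of 16 bulge genes with enough UMIs, 4 were higher and 0 lower, where 22.0% and 12.7% of all genes were, so the higher count is near the share over all genes. Their median of 0.27, against 0.16 for all genes, became 0.08 with the scaling factor and −0.21 after subtraction of free RNA. Of the 6 class markers, Tspan8 (0.73), Pdlim3 (0.95) and Fzd2 (0.64) were higher. Lhx2 (0.54), Lgr5 (0.14) and Pcp4 (−0.30) were within 1.5-fold. The count of 3 higher and 0 lower became 1 and 0 with the scaling factor and 0 and 1 after subtraction, where Tspan8 was at 0.03, Fzd2 at −0.02, Pdlim3 at 0.25, Lhx2 at −0.13, Lgr5 at −0.56 and Krt15, 0.53 before, at −0.06. The lowest other type held 0 CPM of Tspan8 and Lgr5 in both libraries, so their shift came from the rescaling alone.

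Of ERK targets and feedback genes, 2 of 9 were higher and 2 lower with the ERK inhibitor, with a median of −0.04. Of all genes 22.0% were higher and 12.7% lower, so the higher count is near the share over all genes. Ccnd1, the G1 cyclin that ERK induces, had 59 UMIs (173 CPM) in 26 cells with the ERK inhibitor, against 557 UMIs (292 CPM) in 357 cells with DMSO (−0.74, −1.17 to −0.37). The feedback inhibitor Spry2 was at 0.27 (−0.54 to 0.90) and the transcription factor Etv4 at −0.15 (−0.996 to 0.49). Ier3 (0.83) and Phlda1 (0.73) were higher, and Phlda1 was at 0.17 after subtraction. Both intervals hold 0, and they leave out a 1.5-fold lower Spry2 and a 1.5-fold higher Etv4.

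Secreted signals moved in both directions. Bmp2 had 38 UMIs (111 CPM) with the ERK inhibitor, against 50 UMIs (26.2 CPM) with DMSO (2.09, 1.43 to 2.72), and its receptor gene Bmpr1a was at 1.80 (0.69 to 2.78). After subtraction Bmp2 was at 1.40 and Bmpr1a at 1.11. Id2, a target of BMP signals, was at 1.15, and at 0.46 after subtraction. Of 14 BMP pathway genes 5 were higher and 2 lower (median 0.43), and after subtraction of free RNA 2 were higher and 4 lower. Of 19 WNT genes 6 were higher and 3 lower (median 0.29), where 22.0% and 12.7% of all genes were, and after subtraction 1 was higher and 5 lower. The 3 lower ones were ligands, Wnt4 at −1.43 (8 UMIs against 134), Wnt10a at −1.21 (6 against 89, and 0.31 with clusters weighted to the DMSO mix) and Wnt3 at 0 against 35 UMIs, at least 2.09-fold lower. Gli1, the readout of hedgehog signals, had 2 UMIs against 45 (−1.46, −5.10 to −0.08). Ccn2 was at 1.70 (1.55 to 1.84), and at 1.05 after subtraction. Tgfbi, another TGF-beta target, was at 1.63.

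Of 9 cell cycle arrest genes 6 were higher and 0 lower (median 0.67), where 22.0% and 12.7% of all genes were. Among the higher ones were Cdkn1b (0.95, 37 UMIs against 109), which became 0.32 after subtraction, and Btg2 (1.09, 12 against 33). Both with the scaling factor and after subtraction the count was 3 higher and 0 lower. Of 13 mitosis genes 12 were lower and 0 higher, with a median of −1.57 that became −1.52 with the 2 members at 0 UMIs put at their bound. In thinned cells, at least 2 mitosis genes were found in 1 of 51 class cells with the ERK inhibitor (1.96%) and in 7.59% with DMSO. Immune cells of the same libraries had 1.59% and 12.3%, so their share was lower with the ERK inhibitor too. The cause was not tested, and no share of dividing cells is drawn from these values. Of 9 wound keratinocyte genes 7 were lower and 2 higher (median −1.78, or −1.47 with 1 member at its bound), with Krt16 at −3.00 (11 UMIs against 536) and Sprr1b at −3.26 (7 against 426). Fermt1, an integrin activator, was the other way at 0.62, and at 0.08 after subtraction. Neutrophil markers, which include S100a8 and S100a9 of the wound list, summed to 126 CPM with the ERK inhibitor and 411 CPM with DMSO, and spinous and granular markers to 1158 and 23032 CPM, and their part was not tested. For S100a8 and S100a9 the neutrophil sum is no separate measure, since it contains them. In the Notch list Rbpj, the transcription factor of the pathway, was at 1.06, and at 0.32 after subtraction.

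The ErbB2 inhibitor was set against DMSO in the largest numbers of cells, 942 and 923. Of 7500 genes, 12.4% were higher with the ErbB2 inhibitor and 7.51% lower by 1.5-fold or more, with the median gene at 0.05. Tsc22d3 had 64 UMIs with the ErbB2 inhibitor, against 0 with DMSO, at least 18.1-fold higher. Pdk4 had 573 UMIs (255 CPM), against 11 UMIs (5.77 CPM), a log2 ratio of 5.35 (4.62 to 6.48). Mt2 was at 815 CPM against 83.4 CPM (3.28, 3.05 to 3.53). The transcription factor Zbtb16 (3.22), Fkbp5, a co-chaperone of steroid receptors (3.15), Klf15 (2.68) and Glul, which makes glutamine (2.55), were also among the 10 highest, with Galnt15 (34 UMIs against 0, at least 9.63-fold), Adgrv1 (3.01) and Fam13a (2.78).

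Several hair shaft and root sheath genes were among the 10 lowest with the ErbB2 inhibitor. The hair keratins Krt87 and Krt83 had 0 UMIs against 60 and 0 against 37, at least 23.5-fold and 14.5-fold lower. The keratin-associated gene Krtap7-1 had 0 against 58 (at least 22.8-fold), Krtap15 1 against 46, and trichohyalin (Tchh) of the inner root sheath 45 against 600 (−3.94, −4.44 to −3.53). Ccer2 had 6 UMIs against 1003, and Cck had 0 against 36, at least 14.1-fold lower, with all 36 in 3 DMSO cells. Pf4 (−4.55), Vwf (−2.40) and Igfbp5 (−2.20) completed the list. Krt25, Krt71, Krt27 and Krt33a would have ranked here and were at the level of free RNA. The summed inner root sheath markers, 198 CPM with the ErbB2 inhibitor and 1140 CPM with DMSO, move with these genes, and their part was not tested. Tchh, Krt25, Krt71 and Krt27 are in that sum, so for them it is no separate measure.

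With the ErbB2 inhibitor 10 of 18 BMP pathway genes with enough UMIs were higher and 0 lower, where 12.4% of all genes were higher, and the median was 0.63, against 0.05 for all genes. Bmp2 had 242 UMIs (108 CPM) in 171 cells, against 50 UMIs (26.2 CPM) in 38 cells (2.02, 1.60 to 2.51). Id3 was at 970 CPM against 454 CPM (1.10, 0.98 to 1.21), Id2 at 288 against 129 CPM (1.16), Id1 at 368 against 183 CPM (1.004) and Id4 at 366 against 238 CPM (0.62). The Id genes encode inhibitors of differentiation that BMP signals switch on. Smad9, a mediator of BMP signals in the nucleus, was at 1.502. The counts were 9 and 0 with the scaling factor and 7 and 0 after subtraction of free RNA.

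Genes of DNA replication were lower. Of 16 members 11 had a lower level, and 0 a higher one, with the ErbB2 inhibitor, with a median of −0.81, where 7.51% of all genes were lower. Pcna, the sliding clamp of replication, had 175 UMIs (78.0 CPM) against 243 (127 CPM), a ratio of −0.71 (−0.997 to −0.42). Tk1 was at −1.19, and the helicase subunits Mcm2 and Mcm5 at −1.40 and −1.78. The counts were 13 lower and 0 higher both with the scaling factor and after subtraction. The G1 cyclin Ccnd1 had 379 UMIs (169 CPM) in 279 cells, against 557 UMIs (292 CPM) in 357 cells (−0.79, −0.98 to −0.60), and the cell cycle inhibitor Cdkn1b was at 98.5 against 57.2 CPM (0.78, 0.45 to 1.13). Btg1 (0.70) and Ccng2 (0.74), further arrest genes, were on the same side, for 4 higher and 0 lower of 10. Over all genes the shares were 12.4% and 7.51%.

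Mitosis genes were scarce in the class. Among 14 members 11 were lower with the ErbB2 inhibitor, with 0 higher (median −1.07), but 6 of the 14 were at the level of free RNA in both libraries. Over all genes 7.51% were lower. Ccna2, a cyclin of S and G2 phase, had 17 UMIs against 65 (−2.11). With cells thinned to 1000 UMIs, at least 2 mitosis genes were found in 3.27% of class cells with the ErbB2 inhibitor and in 7.59% with DMSO. Immune cells of the same libraries had 5.45% and 12.3%, which is above the class in both libraries, and no share of dividing cells is drawn from these values.

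The class markers did not move as one with the ErbB2 inhibitor. Tspan8 had 2425 UMIs in 706 cells, against 700 UMIs in 392 cells (1.56, 1.44 to 1.68), whereas Pcp4 had 99 UMIs in 71 cells against 225 in 143 cells (−1.41, −1.78 to −1.07). Lhx2, Lgr5, Fzd2 and Pdlim3 were within 1.5-fold. Bulge genes had 2 higher and 0 lower of 19, with a median of −0.05. Over all genes 12.4% were higher and 7.51% lower, so the higher count is near that share. Among WNT genes Dkk3 was higher (1.03), and the ligands Wnt3 (−1.95), Wnt6 (−1.61) and Wnt4 (−1.06) were lower, for 3 higher and 5 lower of 23. Hes1, a Notch target, was at 62.9 against 122 CPM (−0.96). Ccn2 reached 1850 against 547 CPM (1.76, 1.66 to 1.86), and Krt17, a keratin of the outer root sheath and of wounded epidermis, was at 383 against 849 CPM (−1.15). Of 10 wound keratinocyte genes 7 were lower, S100a9 (−2.03), Krt16 (−0.90) and S100a8 (−0.76) among them, and 1 was higher, Fermt1 (0.90). The neutrophil markers, which include S100a8, S100a9 and Mmp9 of this list, summed to 200 CPM with the ErbB2 inhibitor and 411 CPM with DMSO, and their part was not tested. For these shared genes the sum is no separate measure, since it contains them. The transcription factor Klf6 was at 1.53, the tight junction gene Cldn1 at 1.14 and plakoglobin (Jup) at −1.33. Jup was also lower in the class with the ERK inhibitor (−2.42) and the FGFR1/2/3 inhibitor (−1.92). With the ErbB2 inhibitor it was lower in the other types examined too, from −0.67 in interfollicular suprabasal cells to −1.79 in outer root sheath cells. Of 10 ERK targets and feedback genes 0 were higher and 2 lower, Ccnd1 and Phlda1 (−0.86), while Etv4 was at −0.03 and Spry2 at −0.09.

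Many of the highest genes with the ErbB2 and the ERK inhibitor are known as targets of the glucocorticoid receptor. To see them together, 13 such genes were put in a list after their values had been seen, so the list describes and supports nothing. With the ErbB2 inhibitor 12 of 13 were higher in the class and 0 lower, with a median of 2.55. With the ERK inhibitor 7 of 9 with enough UMIs were higher and 1 lower, with a median of 2.73. With the FGFR1/2/3 inhibitor 1 of 6 was higher and 2 lower, with a median of 0.13. Over all genes in the class 12.4%, 22.0% and 10.6% were higher in the same order of inhibitors, and 7.51%, 12.7% and 6.47% lower. The comparisons share the DMSO library. Fkbp5 was at 61.4 CPM with the ERK inhibitor, 88.3 with the ErbB2 inhibitor, 8.76 with the FGFR1/2/3 inhibitor and 9.44 with DMSO, so the first pair stood well above the second. Pdk4 was at 149, 255, 8.76 and 5.77 CPM in the same order.

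Genes of this list were also higher outside the class. In interfollicular basal cells 11 of 12 were higher with the ERK inhibitor (median 2.16) and 10 of 13 with the ErbB2 inhibitor (1.85), with 0 lower. In endothelium 8 of 9 and 9 of 10 were higher, with medians of 2.20 and 1.35. In outer root sheath cells the ErbB2 inhibitor had 3 of 9 higher and 1 lower, with a median of 0.32. Of all genes, 16.6% and 7.99% were higher in interfollicular basal cells, 33.3% and 10.0% in endothelium, with the ERK and then the ErbB2 inhibitor, and 8.49% in outer root sheath cells with the ErbB2 inhibitor. Klf15 was at 49.9 CPM in the class with the ErbB2 inhibitor and at 0.962 to 4.15 CPM in the other types examined.

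**Figure D4:**
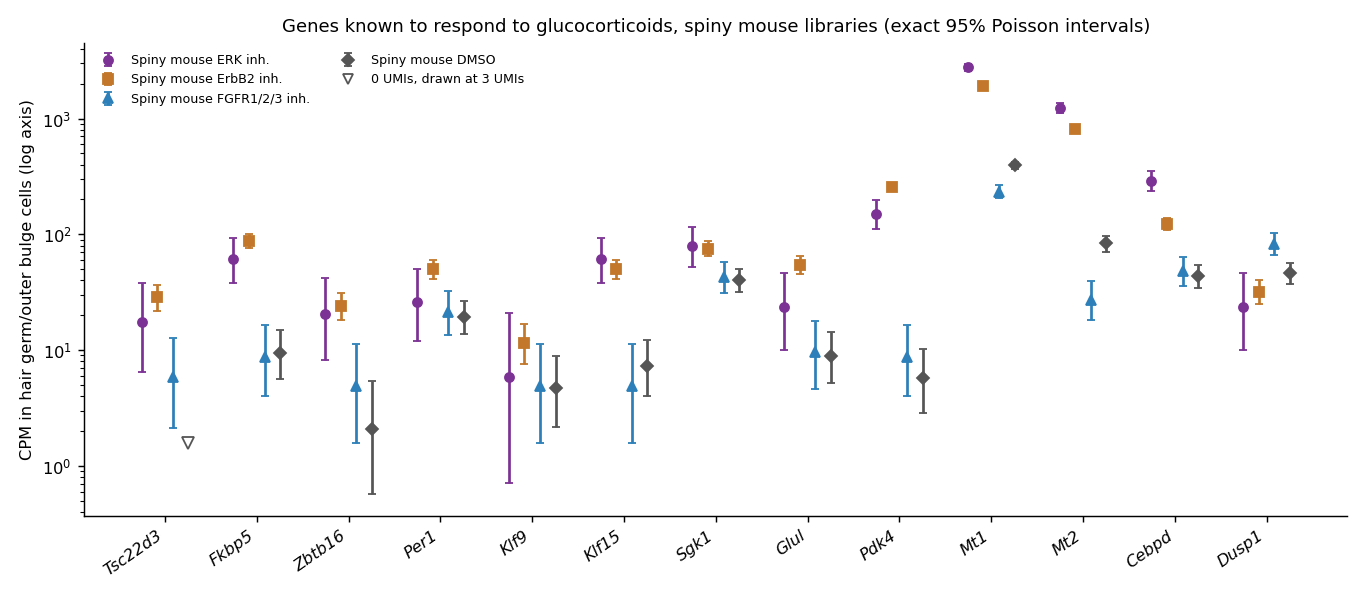
Each of 13 genes is shown as CPM in the class (log axis) for the 4 spiny mouse libraries, with exact 95% Poisson intervals, and open triangles stand for 0 UMIs drawn at 3 UMIs. For Pdk4, Fkbp5, Klf15, Mt1 and Mt2 the ERK and ErbB2 inhibitor points lie above those of the FGFR1/2/3 inhibitor and DMSO.

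The FGFR1/2/3 inhibitor was set against DMSO in 371 cells and 923 cells of the class. Of 6694 genes 10.6% were higher with the FGFR1/2/3 inhibitor and 6.47% lower, with the median gene at 0.10. The scaling factor moved all ratios down by 0.11, after which 465 genes were higher and 600 lower in place of 707 and 433. Immediate early genes led. Fosb had 41 UMIs in 16 cells with the FGFR1/2/3 inhibitor, against 3 UMIs in 3 cells with DMSO (4.28, 3.02 to 7.001), and Fos had 174 UMIs in 70 cells against 37 in 35 (3.096, 2.61 to 3.68). Egr1 was at 27.3 against 7.87 CPM (1.75). Over the list 6 of 12 immediate early genes were higher and 0 lower (median 0.57), with Jun at 0.93. These genes respond to growth factors and also to tissue dissociation, and the part of dissociation was not tested. Fos was higher in other types of the same library too, at 374 against 70.0 CPM in interfollicular basal cells (2.42) and 113 against 28.9 CPM in endothelium (1.97).

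The contractile genes Tagln (2.504) and Acta2 (2.26) also ranked high with the FGFR1/2/3 inhibitor, but 54.3% of the Tagln UMIs and 85.7% of the Acta2 UMIs sat in 1 cell each. Jcad, Cyp4b1, Slc1a3, Sgk3, Pik3cb and Cdkl1 followed at 1.83 to 2.10 on 22 to 29 UMIs each. Slc1a3, a glutamate transporter of outer root sheath and stem cells in mouse skin, had 26 UMIs in 24 cells against 11 UMIs in 11 cells. The lowest were those seen above, Ccer2 (0 against 1003, at least 180-fold), Krtap15 (0 against 46, at least 8.26-fold), Cck (0 against 36, at least 6.46-fold), Krtap7-1, Tchh, Krt83, Krt87 and Pf4, with Lsp1 (−3.28) and Ralgapa2 (−2.73). Krt71, Krt33a, Birc5 and Krt25 were at the level of free RNA. The inner root sheath sums were 271 CPM with the FGFR1/2/3 inhibitor and 1140 CPM with DMSO.

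With the FGFR1/2/3 inhibitor some identity genes of the class were higher. Of the 6 markers 4 were higher and 0 lower, Pcp4 (0.94, 0.67 to 1.21), Tspan8 (0.93), Fzd2 (0.79) and Pdlim3 (0.72), with Lhx2 at 0.28 and Lgr5 at 0.18. All 4 held with the scaling factor, and 1, Pcp4, after subtraction of free RNA, where Tspan8 was at 0.57, Fzd2 at 0.48 and Pdlim3 at 0.36. Hair germ genes had 4 higher and 0 lower of 10 (median 0.55), among them Cdh3, the placental cadherin of germ and matrix (0.71, and 0.36 after subtraction). For Tspan8, Pdlim3 and Cdh3 the lowest other type held 0 CPM in both libraries, so their shift came from the rescaling alone. Krt15 was at 6684 against 4088 CPM (0.71, 0.66 to 0.76, and 0.44 after subtraction), for 5 higher and 0 lower of 19 bulge genes. Over all genes 10.6% were higher and 6.47% lower.

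Of BMP pathway genes 6 of 14 were higher and 0 lower (median 0.54), with Id3 at 0.60 and Id1 at 0.64, but 1 remained past 1.5-fold with the scaling factor and 0 after subtraction. DNA replication genes had 5 lower and 0 higher of 15 (median −0.51), with Mcm2 at −1.34 and Pcna at −0.51. In thinned cells, at least 2 mitosis genes were found in 1.15% of 349 class cells with the FGFR1/2/3 inhibitor and in 7.59% with DMSO. Immune cells of the same libraries had 4.10% and 12.3%, and no share of dividing cells is drawn from these values. Etv4, which FGF signals induce, had 41 UMIs (39.9 CPM) in 35 cells with the FGFR1/2/3 inhibitor, against 123 UMIs (64.5 CPM) in 108 cells (−0.67, −1.24 to −0.17). Spry2 was at −0.05, and Ccnd1 was higher at 390 against 292 CPM (0.42), within 1.5-fold. Over the list, 2 of 10 ERK targets and feedback genes were higher and 1 lower, where 10.6% and 6.47% of all genes were. Ccnd1 was thus at 173 CPM with the ERK inhibitor, 169 with the ErbB2 inhibitor, 390 with the FGFR1/2/3 inhibitor and 292 with DMSO. Cxcl14, a chemokine of epithelium, was at 458 against 217 CPM (1.08), while Mt2 was lower at 27.3 against 83.4 CPM (−1.57).

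**Figure D5:**
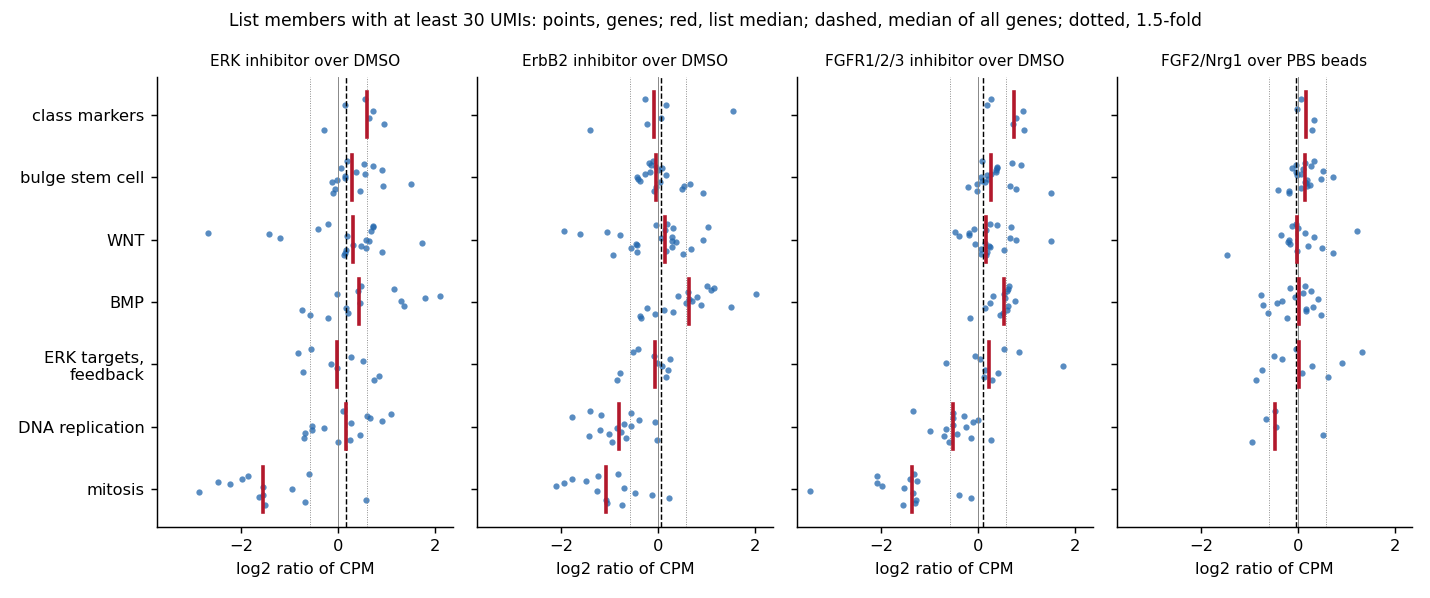
Points are genes of 7 lists in the annotated class, placed by their log2 ratio of CPM in the 4 comparisons. Red bars are list medians, dashed lines the median of all genes and dotted lines 1.5-fold. The BMP median lies at 0.63 and that of DNA replication at −0.81 with the ErbB2 inhibitor.

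In the mouse, where FGF2/Nrg1 beads were set against PBS beads, cluster 2 led with 3 melanocyte markers (Mlana, Pmel and Dct) and with only 1 class marker, Lgr5, among its 10 leading genes. The comparison was therefore made for cluster 2 by its number, 127 cells with FGF2/Nrg1 beads against 65 with PBS beads. Of 5090 genes 6.80% were higher with FGF2/Nrg1 beads and 10.2% lower, with the median gene at −0.04. Over the whole annotated class the shares were 6.63% higher and 10.0% lower. The highest were pigment cell genes, among them Npy (74 UMIs against 0, at least 16.0-fold) and Mlana (158 against 2, 5.10). They came from few cells. Over the whole annotated class, 4 cells with FGF2/Nrg1 beads held 556 of the 588 melanocyte marker UMIs, and 2 cells with PBS beads held 80 of 117. Without these cells Npy had 0 UMIs on both sides and Mlana 1 against 0, and no melanocyte marker was left among the 10 leading genes of the cluster. Then 6.18% of genes were higher and 11.4% lower.

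The intervals of the class markers all held 0 between the 2 mouse libraries. Lhx2 had a log2 ratio of 0.02 (−0.26 to 0.30) in cluster 2, Lgr5 −0.04 (−0.39 to 0.32), Fzd2 0.36 (−0.05 to 0.81) and Pcp4 0.29 (−0.53 to 1.24). Krt15 was at 16765 CPM with FGF2/Nrg1 beads, against 17428 CPM with PBS beads (−0.06), and Cd34 at 181 against 142 CPM (0.34, −0.11 to 0.82). Of 21 bulge genes 1 was higher and 0 lower, with a median of 0.14. Over all genes of cluster 2, 6.80% were higher and 10.2% lower.

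Besides the pigment cell genes, Krt24, Irx3 and Vim were among the 10 highest with FGF2/Nrg1 beads. Krt24, a keratin of the upper follicle and bulge region, had 74 UMIs (113 CPM) against 9 UMIs (21.3 CPM) in cluster 2, a ratio of 2.28 (1.41 to 3.60), and Krt6a, a keratin of outer root sheath and wound edge, 136 against 44.9 CPM (1.54, 0.87 to 2.40). These 2 genes were found in 14 and 26 cells of the class with FGF2/Nrg1 beads. Irx3, a homeobox factor, had 34 UMIs against 3 (2.502, 1.21 to 5.22), and Vim, the filament protein vimentin, 83 against 9 (2.44). S100a9, an antimicrobial protein of neutrophils and stressed keratinocytes, had 39 against 5 (2.11). Neutrophil markers summed to 105 CPM in the class with FGF2/Nrg1 beads and to 23.2 CPM with PBS beads. S100a9 is itself in that list and gave 39 of its 70 UMIs with FGF2/Nrg1 beads and 5 of 10 with PBS beads. The sum is thus no separate measure, and the part of neutrophil RNA in S100a9 was not tested. Krt17 and Fermt1, which with Krt6a and S100a9 stand in the wound keratinocyte list, were within 1.5-fold, at 0.38 and 0.31. Car12, a carbonic anhydrase, was at 150 against 54.4 CPM (1.42). Without the melanocyte-rich cells Krt24, Krt6a, Irx3, Vim, S100a9 and Car12 were at 2.32, 1.58, 2.54, 2.89, 2.15 and 1.40.

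Growth signals and their readouts were mixed with FGF2/Nrg1 beads. Sfrp1, a secreted WNT inhibitor, was at 421 against 175 CPM in cluster 2 (1.25, 0.89 to 1.66), and Cxcl14 at 856 against 487 CPM (0.81). Egr1 was at 82.6 against 37.8 CPM (1.07, 0.30 to 2.03), and Spry2, the feedback inhibitor of receptor kinases, had 26 UMIs in 23 cells against 6 UMIs in 6 cells (1.32, 0.18 to 3.06). Dusp6, a phosphatase that switches ERK off, had 14 UMIs against 5 (0.69, −0.70 to 2.69) and Etv4 had 9 against 1, too few for a direction. Ccnd1 was lower, at 205 against 355 CPM (−0.79, −1.14 to −0.44), and Sostdc1, a BMP and WNT antagonist of follicle and germ, at 580 against 917 CPM (−0.66, −0.87 to −0.45). Over the list, 3 of 10 ERK targets and feedback genes were higher and 2 lower. Without the melanocyte-rich cells of the class the count was 1 and 2 of 8, where fewer members reached 30 UMIs over both libraries. Spry2 fell below that filter, although those cells held only 3 of its 26 UMIs with FGF2/Nrg1 beads and 0 of 6 with PBS beads. The smaller count is therefore no measure of a lower Spry2 ratio.

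Apart from AY036118, which had 323 UMIs against 766 in the annotated class, the lowest ratios with FGF2/Nrg1 beads rested on small counts. Krtap17-1, a hair shaft gene, had 7 UMIs against 46 (−3.18), and all 46 came from 3 cells. AY036118 was at 473 against 1764 CPM (−1.90, −2.09 to −1.71) and was found in 79.1% of class cells with FGF2/Nrg1 beads and in 97.3% with PBS beads. Rnf170, Uspl1, Gins4, Aspn, Echdc1, Cdh11 and Sdad1 were at −1.95 to −1.48 over the annotated class, on 9 to 14 UMIs against 21 to 29.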

How the data were processed

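The authors deposited raw UMI counts as whole numbers, with 20381 genes against all cells. A second deposited table gives each cell's library, cluster, cell type, total count and, as percent, its mitochondrial, ribosomal and haemoglobin UMIs, per the file headers. The submitters' processing notes name Cell Ranger 6.1.1 and GRCm38 (mm10); filters on cells and removal of doublets are not stated there or in the labels, and no doublets were called. UMI counts were summed over the class per library and scaled to CPM. Log2 ratios added 1 UMI to each count, for genes with at least 30 UMIs over both libraries in classes of at least 30 cells; past 1.5-fold is called higher or lower. Intervals are exact (Clopper-Pearson, Poisson, conditional binomial). A gene was put at the free RNA level when under 3 times the lowest other type and over 10-fold below the highest. Named were the 10 highest and 10 lowest ratios whose interval excludes 0, class markers, list members and fixed single genes; Krt17, Krt6a, S100a9, Car12, Cxcl14, Txnip and the 13 glucocorticoid targets were added after values were seen. One gene that this rule names is not reported here. Members, lists and rules were chosen with earlier results of these data known. Python 3.11.15, NumPy 2.4.6, SciPy 1.17.1 and pandas 2.3.3 were used, and the ratios were tested on simulated data.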

Additional observations from a re-analysis of the deposited data

How the results depend on the processing

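No paired analysis was possible because each group is 1 library, and no replicate could be left out. Taking only cells whose class markers outnumber each other marker list could not be run, since 0 cells met it. With at least 100 UMIs, with no filter and past 2-fold, the calls were 726, 6482 and 821 for the ERK inhibitor (2108 as reported), 645, 4774 and 445 for the ErbB2 inhibitor (1496), 351, 4297 and 291 for the FGFR1/2/3 inhibitor (1140) and 102, 5836 and 176 for FGF2/Nrg1 beads (862 in the annotated class). Subtracting the lowest other type, with the rescaling that follows, gave 3068, 2444 and 2032 for the ErbB2 inhibitor, the FGFR1/2/3 inhibitor and FGF2/Nrg1 beads. For the beads, thinned cells gave 193 and means over cells 1347. With the scaling factor the higher share of calls was 41.5% in place of 63.4% (ERK inhibitor), 55.9% in place of 62.4% (ErbB2 inhibitor), 43.7% in place of 62.0% (FGFR1/2/3 inhibitor) and 52.4% in place of 39.8% (beads). On the epithelial denominator the shares were 12.7%, 11.5%, 10.1%, 8.14%, 8.16% and 4.88%. Genes past 1.5-fold over other epithelial cells in all 4 spiny mouse libraries numbered 1157, and 88 with thinned cells, few of whose genes reach 30 UMIs with the ERK inhibitor. Of 1789 values of single genes under the alternatives, 152 moved beyond their interval and 29 changed sign, 11 of them after subtraction. Among values past 1.5-fold 2 changed sign: with the ERK inhibitor Fzd2 was at −0.016 after subtraction and Wnt10a at 0.31 with clusters weighted to the DMSO mix, which rests on 9 cells of cluster 26. The cause was not tested. The cluster 2, melanocyte and subtraction alternatives were chosen after seeing the data. The 54 cells of the ERK inhibitor and the 74 of PBS beads limit the depth most.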

Other observations

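Some follicle genes could be counted in the class of one species and hardly in the other, and no ratio was taken. Nog, a secreted BMP inhibitor, had 22 UMIs with FGF2/Nrg1 beads and 11 with PBS beads, and 0 in the class of every spiny mouse library. Egfl6, a matrix protein that anchors follicle muscle in the mouse, had 46 and 26 UMIs in the 2 mouse libraries and 0, 0, 1 and 1 in the 4 spiny mouse libraries. Hmga2 had 19 and 9 UMIs in the mouse and at most 6 in a spiny mouse library. Fgf18, a growth factor of the resting follicle in the mouse, had 25 UMIs with FGF2/Nrg1 beads and 28 with PBS beads, against 1 to 4 in the spiny mouse. Sostdc1 was at 598 CPM with FGF2/Nrg1 beads and 911 CPM with PBS beads, and at 11.7 to 29.2 CPM in the spiny mouse. In the other direction, Wif1 had 125 to 575 UMIs in each spiny mouse library and 13 in each mouse library.

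The 3 DMSO cells that held 997 Ccer2 UMIs were all in cluster 26, with a median of 1447 UMIs, 6 inner root sheath marker UMIs and 3 class marker UMIs among them.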
